A study of Arabidopsis thaliana with 12 samples.

Results

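The AP2/ERF family members described here were 8 transcription factor genes: ERF6 (AT4G17490), ERF1A (AT4G17500), ERF2 (AT5G47220), ORA59 (AT1G06160), AT4G32800, AT5G07580, RAV1 (AT1G13260) and RAP2.6 (AT1G43160). They were chosen by locus, and each was represented by 1 probe set, so that they made up 8 of the 22746 probe sets tested on the ATH1 array. All 8 also stand in the list of genes that the study itself drew from these arrays for a difference between scion and rootstock, so neither their number nor their direction is independent evidence of such a difference. The arrays measured transcripts in homografted Arabidopsis thaliana, in which the young inflorescence stem of a Col-0 plant was cut and wedge-grafted back on the same plant. Young organs, closed flower buds on the one hand and leaves on the other, were sampled on lateral shoots above the graft (scion) and below it (rootstock), which gave 4 groups with 3 biological replicates each: scion flower bud, rootstock flower bud, scion leaf and rootstock leaf. All 4 groups were wild-type Col-0 and all came from grafted plants, which the study had selected for good scion growth. Scion and rootstock also differed in their position on the stem, and with no arrays of ungrafted plants used here the effects of graft and position cannot be told apart.

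AP2/ERF proteins are plant transcription factors that share the AP2 DNA-binding domain. The ERF subfamily binds the GCC box of defence and ethylene-responsive promoters, the DREB subfamily binds the dehydration-responsive element, and RAV proteins carry a B3 domain beside the AP2 domain. Several group IX ERF genes are transcribed within minutes of wounding, touch, pathogen signals or osmotic stress, downstream of ethylene, jasmonate and mitogen-activated protein kinases.

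The values were log2 signals, deposited with every probe set shifted so that its median across the 12 arrays was 0. They therefore give differences between arrays for 1 gene and no level that could be compared between genes. In such bulk tissue, fewer cells of a type and less RNA per cell cannot be told apart. A member is called where the adjusted p of limma's moderated test was at most 0.05 over all tested probe sets and the fold change was at least 2. Differences are given as log2 ± the standard error (SE) of the fit, with 3 arrays in each group.

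Some arrays stood apart from the others of their group. On the first principal component, which held 73.03% of the variance and separated the organs, scion flower bud 1 stood at -47.49 and the other 5 flower bud arrays between -97.29 and -78.76. Scion leaf 3 and rootstock leaf 3 stood at 28.06 and 58.62, nearer to the buds than the other 4 leaf arrays, which lay between 86.07 and 117.8. The 8 measured floral marker genes, among them SEP1, SEP2 and AP1, had a median log2 value of -2.61, -3.62 and -1.88 in scion leaves 1 to 3, against -4.41 to -4.29 in rootstock leaves. All 8 had higher means in scion leaves, and 3 of the 8 were called, where 0.0264% of all probe sets were called higher. Of 15 listed markers only these 8 had a named probe set, and 7 of the 8 stand in the study's own list. Their count is therefore no independent evidence. Of 11 listed leaf markers only 2, LHCB4.2 and RCA, had a named probe set. Their median was -0.20 in scion flower bud 1 and -0.88 to -0.58 in the other flower bud arrays.

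ERF6, which is phosphorylated by stress-activated kinases and switches on stress and defence genes, was down-regulated in flower buds of scion. Its log2 values were -2.12, -1.85 and -1.42 in the scion buds and 0.63, 0.56 and 0.26 in the rootstock buds. In leaves they were -0.11, -1.41 and -0.35 on the scion and 1.13, 0.11 and 0.60 on the rootstock. In both organs every scion array was below every rootstock array, and the gap was wider in the buds. The difference was -2.28 ± 0.35 in flower buds, 4.85-fold lower in scion, with an adjusted p of 0.0329. In leaves it was -1.24 ± 0.35, 2.36-fold lower, with an adjusted p of 0.362, which missed the threshold. The bud difference minus the leaf difference was -1.04 ± 0.50, which did not pass the test (adjusted p = 0.676). ERF6 was the only member that was called for scion against rootstock: 1 of 8 in flower buds, where 0.158% of all probe sets were called lower and 0.237% higher. The call was lost when scion flower bud 1 or any one of the rootstock flower bud arrays was left out, with adjusted p values of 0.137 without scion flower bud 1, and 0.126, 0.186 and 0.0516 without rootstock flower buds 1, 2 and 3, while the difference stayed between -2.47 and -2.12. ERF6 was also the member that did not differ detectably between organs of the rootstock, with -0.13 ± 0.35 for buds minus leaves (adjusted p = 0.797).

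**Figure D1:**
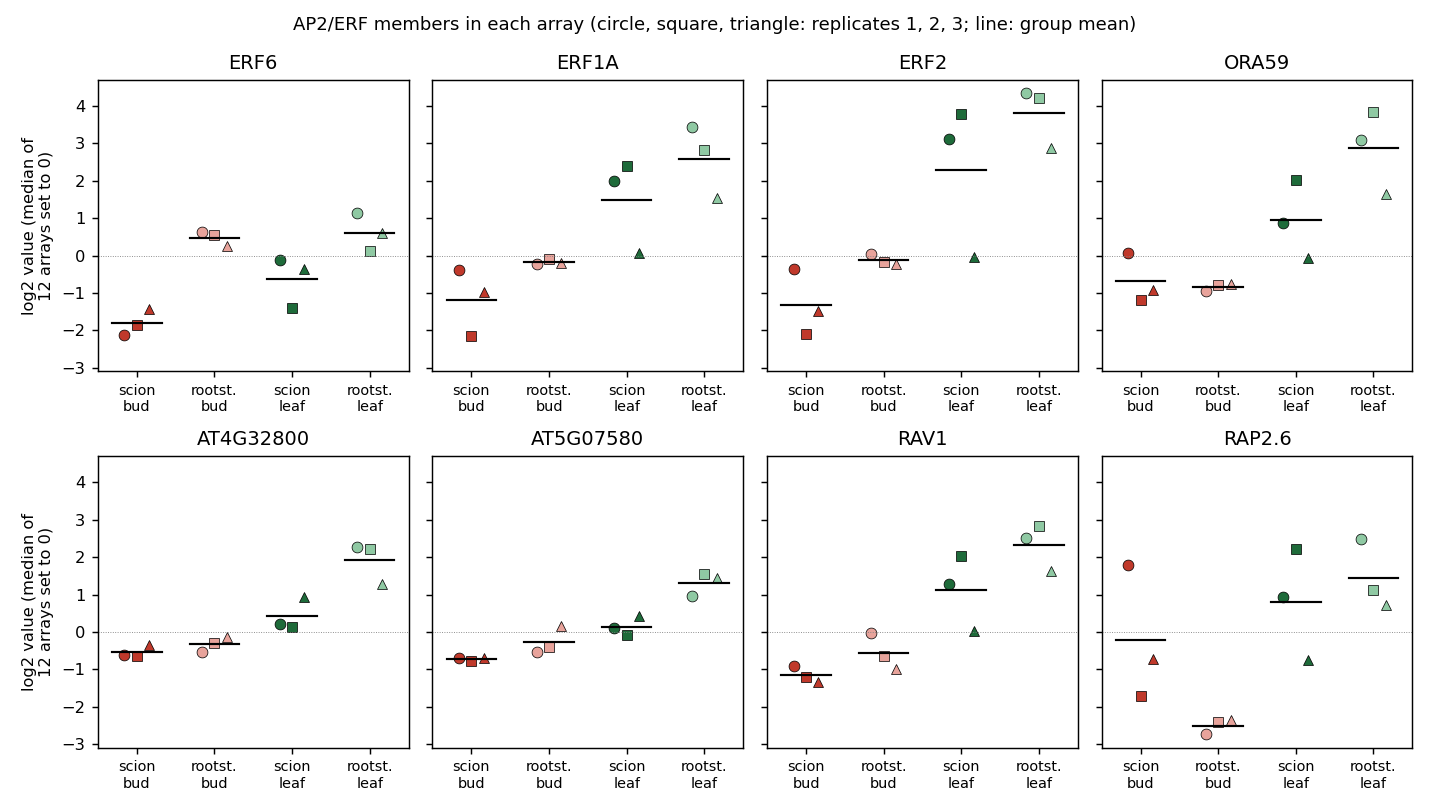
Log2 value (vertical axis, median of the 12 arrays set to 0) of each of the 8 members in each array of the 4 groups on the horizontal axis. Symbols are replicates and lines are group means. All 8 members have their highest mean in rootstock leaves, and ERF6 and AT5G07580 have every scion array below every rootstock array in both organs.

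ERF1A, a GCC-box activator, lies next to ERF6 on chromosome 4. Its log2 values were -0.38, -2.16 and -0.98 in scion buds against -0.24, -0.08 and -0.21 in rootstock buds, and 2.00, 2.41 and 0.08 in scion leaves against 3.43, 2.82 and 1.53 in rootstock leaves. The bud groups did not overlap, although scion bud 1 lay just below rootstock bud 1, and the leaf groups overlapped. The difference was -0.999 ± 0.66 in buds (adjusted p = 0.676) and -1.10 ± 0.66 in leaves (adjusted p = 0.846), and neither passed. The other neighbours of the pair with a named probe set, AT4G17486 and AT4G17505, had bud differences of -0.09 ± 0.13 and -0.04 ± 0.12. The named neighbours of ERF2, ORA59, AT5G07580 and RAV1 had differences between -0.42 and 0.39 in both organs. On the other side of ERF2, AT5G47229 had no named probe set, and ERF5 (AT5G47230) follows by locus number. ERF5 had -0.98 ± 0.30 in buds and -0.60 ± 0.30 in leaves.

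ERF2, a jasmonate-responsive activator of defence genes, had values close in order to those of ERF1A. They were -0.37, -2.11 and -1.49 in scion buds and 0.04, -0.18 and -0.22 in rootstock buds. In scion leaves they were 3.11, 3.78 and -0.04, and in rootstock leaves 4.35, 4.22 and 2.88. The bud groups did not overlap. Scion leaf 3 lay far below the other 2 scion leaves, which in turn overlapped the range of the rootstock leaves. The difference was -1.20 ± 0.85 in buds (adjusted p = 0.712) and -1.53 ± 0.85 in leaves (adjusted p = 0.809). Without scion leaf 3 the leaf difference of ERF2 shrank to -0.37, and that of ERF1A to -0.39. Rootstock leaf 3 was also the lowest of its group for both genes. Without replicate 3 of both leaf groups the leaf differences were -0.83 for ERF2 and -0.92 for ERF1A.

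ORA59, which joins ethylene and jasmonate signals at the promoters of defensin genes, had its wider difference in leaves. Its values were 0.06, -1.19 and -0.91 in scion buds and -0.95, -0.79 and -0.75 in rootstock buds. In leaves they were 0.87, 2.04 and -0.06 on the scion and 3.10, 3.85 and 1.66 on the rootstock. The bud groups overlapped, and in leaves only scion leaf 2 lay above the lowest rootstock leaf. The difference was -1.92 ± 0.60 in leaves, 3.78-fold lower in scion, with an adjusted p of 0.437, and 0.15 ± 0.60 in buds (adjusted p = 0.975). With the replicate number as a block within each organ, the same leaf difference had an adjusted p of 0.0269 and would be called.

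AT5G07580, a group IX gene, was lower in every scion array than in every rootstock array of the same organ. Its values were -0.69, -0.77 and -0.70 in scion buds and -0.54, -0.41 and 0.16 in rootstock buds, and 0.09, -0.09 and 0.44 in scion leaves and 0.95, 1.54 and 1.44 in rootstock leaves. The scion buds were within 0.08 of each other. The difference was -1.17 ± 0.22 in leaves, 2.24-fold lower, with an adjusted p of 0.118, and -0.46 ± 0.22 in buds (adjusted p = 0.483).

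AT4G32800 belongs to the DREB subfamily. The study's tables name it TINY, whereas RefSeq gives that name to AT5G25810, which had a leaf difference of 0.32 ± 0.16 and a bud difference of -0.14 ± 0.16. AT4G32800 had values of -0.61, -0.64 and -0.35 in scion buds and -0.54, -0.31 and -0.14 in rootstock buds. In leaves they were 0.21, 0.14 and 0.92 on the scion and 2.27, 2.23 and 1.3 on the rootstock. The bud groups overlapped and the leaf groups did not. The leaf difference of -1.51 ± 0.28, 2.84-fold lower, had the smallest p of the 8 members in leaves and an adjusted p of 0.113. Without rootstock leaf 3 it was -1.82 with an adjusted p of 0.0283. Without replicate 3 of both leaf groups, an alternative chosen after seeing the data, it was -2.07 with an adjusted p of 0.00159. After quantile normalization it was -1.06 (adjusted p = 0.639), and in a fit of the leaf arrays alone its adjusted p was 0.975. The bud difference was -0.21 ± 0.28 (adjusted p = 0.897). The change in buds minus that in leaves was 1.3 ± 0.40 (adjusted p = 0.403), and without replicate 3 of both leaf groups 1.87 (adjusted p = 0.0266).

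RAV1, an AP2 and B3 domain factor known as a repressor of growth, had values of -0.90, -1.20 and -1.33 in scion buds and -0.02, -0.64 and -1.0 in rootstock buds. In scion leaves they were 1.29, 2.03 and 0.02 and in rootstock leaves 2.53, 2.84 and 1.63. Both pairs of groups overlapped, and in leaves scion leaf 2 was the only scion array above the lowest rootstock array. The difference was -1.22 ± 0.48 in leaves (adjusted p = 0.613) and -0.59 ± 0.48 in buds (adjusted p = 0.761). With the replicate block within each organ the leaf difference had an adjusted p of 0.0368. Without scion leaf 3 it was -0.67, and without replicate 3 of both leaf groups -1.02.

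RAP2.6, a group X factor that responds to abscisic acid, salt and wounding, was the member that was higher in flower buds of scion by more than 2-fold. Its values were 1.80, -1.72 and -0.72 in scion buds and -2.74, -2.42 and -2.36 in rootstock buds. In leaves they were 0.94, 2.23 and -0.74 on the scion and 2.49, 1.12 and 0.72 on the rootstock. The bud groups did not overlap, but the scion buds were spread over 3.52 log2 units, and the leaf groups overlapped. The difference was 2.29 ± 0.91 in buds, 4.90-fold higher in scion, with an adjusted p of 0.365, and -0.64 ± 0.91 in leaves (adjusted p = 0.968). Without scion flower bud 1, the array that stood toward the leaves, the bud difference was 1.29. RAP2.6 was high in leaves of both parts, and the part of that array's position in its value was not tested.

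**Figure D2:**
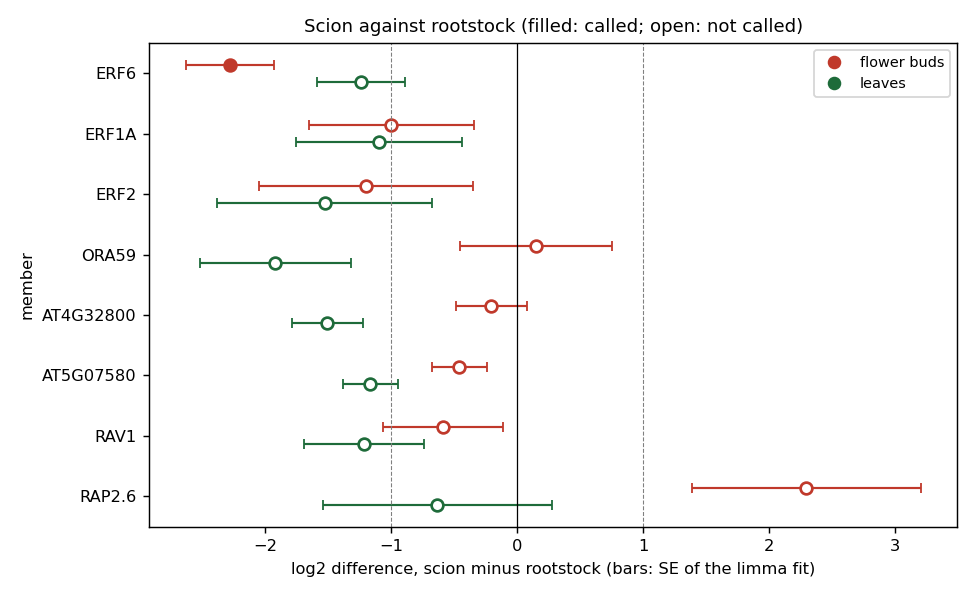
Log2 difference of scion minus rootstock (horizontal axis) for each of the 8 members in flower buds and in leaves. Bars are the SE of the limma fit, filled points were called, and dashed lines mark a 2-fold change. ERF6 in flower buds is the only filled point, at -2.28, and all 8 leaf points lie below 0.

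In leaves all 8 members had lower mean values on the scion, where 52.2% of all probe sets were lower, and 7 of the 8 were lower by at least 2-fold, as were 0.919% of all probe sets, while 1.24% were higher by as much. All 8 had entered the study's own list by a difference of at least 2-fold in an organ on these arrays. The shares over all probe sets given here are therefore description and no independent evidence. The median leaf difference of the 8 was -1.23, beside -0.01 over all probe sets tested. For 3 members the leaf groups did not overlap, against 4.89% of all probe sets in that direction and 4.01% in the other. None of the 8 was called, against 0.0264% of all probe sets called lower, and 5 had an unadjusted p of at most 0.05, against 3.97% of all probe sets in that direction and 3.18% in the other. In flower buds 6 of the 8 were lower on the scion, where 56.0% of all probe sets were, with a median of -0.52 beside -0.04. The bud groups did not overlap for 4 members that were lower and 1 that was higher, against 14.1% and 11.1% of all probe sets. In buds 2 members were lower by at least 2-fold and 1 was higher, against 0.747% and 2.83% of all probe sets, and 2 had an unadjusted p of at most 0.05, ERF6 being lower and RAP2.6 higher, against 5.09% lower and 5.93% higher over all probe sets. Lower values in both organs were found for 6 members, against 30.7% of all probe sets. Of these, ERF6 and ERF2 were lower by at least 2-fold in both organs, as were 0.0484% of all probe sets, and ERF6 and AT5G07580 had no overlap in either organ, as had 0.892%. The change in buds did not differ from that in leaves by the test for any member, and 0.00% of all probe sets passed it.

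The same-numbered leaf arrays deviated together from their group means, with correlations of 0.342, 0.714 and 0.816. Scion leaf 2 with rootstock leaf 1 gave 0.396, so pair 1 was not matched more closely than these unlike numbers. The other unlike-numbered leaf arrays gave -0.788 to -0.0166. With that limit, the leaf differences were also read within pairs. All 8 members were lower on the scion in pairs 1 and 3, with medians of -1.34 and -1.46. In pair 2, whose arrays stood at 117.8 and 116.1 on the first component, 7 of the 8 were lower, with a median of -1.17, and RAP2.6 was higher by 1.1. Over all probe sets the medians of pairs 1 to 3 were -0.03, -0.01 and 0.01. Within pair 2, AT4G32800 differed by -2.09, ORA59 by -1.81, AT5G07580 by -1.63 and ERF6 by -1.52. ERF1A differed by -1.43, -0.41 and -1.45 in pairs 1 to 3, and ERF2 by -1.23, -0.43 and -2.92. AT4G32800 differed by -2.06 in pair 1 and by -0.37 in pair 3. Of the 8 floral markers, 8, 7 and 8 were higher on the scion in pairs 1 to 3, with medians that differed by 1.74, 0.78 and 2.42. Their part in the leaf differences was not tested.

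Between organs, 7 of the 8 members were called lower in flower buds than in leaves of the rootstock, where 12% of all probe sets were called lower and 13.7% higher in buds. RAP2.6 had the widest difference, -3.95 ± 0.91 (adjusted p = 0.00526), followed by ERF2 with -3.94 ± 0.85 (adjusted p = 0.00372) and ORA59 with -3.70 ± 0.60 (adjusted p = 0.000667). RAV1, ERF1A, AT4G32800 and AT5G07580 followed with -2.89 ± 0.48, -2.77 ± 0.66, -2.26 ± 0.28 and -1.57 ± 0.22. For these 7 no bud array of the rootstock reached the lowest leaf array, which was so for 27.8% of all probe sets in that direction. The first 3 in this order differed by less than their standard errors.

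On the scion the differences between organs of these 7 were smaller in size, but the change in this difference passed the test for none. On the scion, ERF2 differed by -3.61 ± 0.85 (adjusted p = 0.00861), ERF1A by -2.67 ± 0.66 (adjusted p = 0.0105), RAV1 by -2.26 ± 0.48 (adjusted p = 0.00486) and ERF6 by -1.17 ± 0.35 (adjusted p = 0.0264). These 4 of the 8 were called, where 7.91% of all probe sets were called lower in buds. For 6 members no scion bud array reached the lowest scion leaf array, against 22.0% of all probe sets. ORA59 differed by -1.63 ± 0.60 (adjusted p = 0.0606) and RAP2.6 by -1.02 ± 0.91 (adjusted p = 0.413). AT4G32800 and AT5G07580 passed the adjusted p, at 0.0245 and 0.0124, with 1.94-fold and 1.82-fold differences that stayed under the fold threshold. The call of ERF6 between organs of the scion was lost without scion flower bud 1 (-1.01), scion flower bud 2 (-1.15), scion leaf 1 (-0.92) or scion leaf 3 (-1.03). ORA59 was called there without scion flower bud 1 (-2.0), scion leaf 3 (-2.13), rootstock leaf 2 or rootstock leaf 3 (both -1.63), and AT4G32800 without scion flower bud 3 (-1.05), scion leaf 1 (-1.06) or scion leaf 2 (-1.10).

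**Figure D3:**
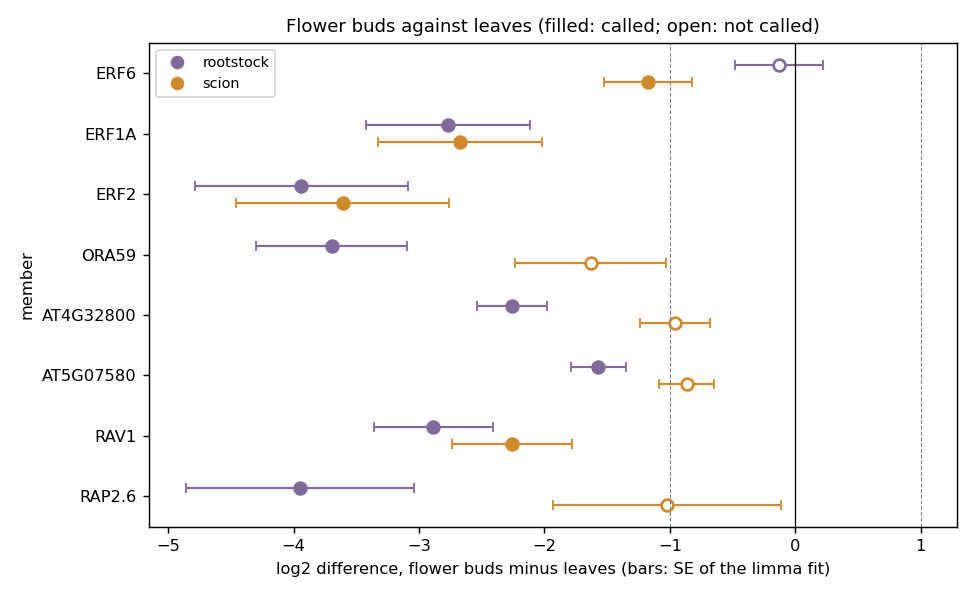
Log2 difference of flower buds minus leaves (horizontal axis) for each of the 8 members on the rootstock and on the scion. Bars are the SE of the limma fit, filled points were called, and dashed lines mark a 2-fold change. All points lie below 0, with 7 filled on the rootstock and 4 on the scion, and ERF6 on the rootstock lies at -0.13.

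Across the 12 arrays the order of the 4 groups was the same for ERF1A, ERF2, AT4G32800, AT5G07580 and RAV1: rootstock leaf highest, then scion leaf, rootstock bud and scion bud. For ORA59 and RAP2.6 the scion bud stood above the rootstock bud, and for ERF6 the rootstock bud stood above the scion leaf. With group means removed, the Pearson correlation of ERF1A with ERF2 over the 12 arrays was 0.94, and those among ERF1A, ERF2, ORA59, RAV1 and RAP2.6 lay between 0.61 and 0.94. On the same basis ERF6 had correlations of -0.59 to 0.22 with the other members, AT5G07580 of -0.62 to 0.28 and AT4G32800 of -0.27 to 0.28. That of ERF6 with ERF1A, its neighbour on the chromosome, was -0.19. These correlations are descriptions over arrays that share the same 4 groups and the arrays that stood apart.

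By Pearson correlation over the 12 arrays, the probe sets most like each member among those with 1 named gene were the following. For ERF6 they were AT1G49750 (0.88), AT2G26390 (0.87) and AT3G62370 (0.86), and AT3G62370 was again among the first 3 with group means removed (0.88), beside AT1G05410 (0.89) and AT1G79060 (0.87). HR4 was among the first 3 for both ERF1A (0.97) and ERF2 (0.98), with AT2G26190 and ORA47 for ERF1A (both 0.97), and AT4G38550 (0.99) and AT5G25930 (0.98) for ERF2. For ORA59 they were ALDH2C4 (0.99), UMAMIT17 (0.98) and HO3 (0.97). MSRB6 was among the first 3 for AT4G32800 (0.97) and AT5G07580 (0.96), beside AT1G67330 (0.97) and AT2G31110 (0.96) for the former, and AT3G25950 (0.98) and AT1G17330 (0.96) for the latter. For RAV1 they were UGT72B3, PR5 and RRTF1 (each 0.98), and for RAP2.6 AT1G78070 (0.98), AAO3 (0.97) and SERAT2;1 (0.96). The other 7 members differed between organs of the rootstock, and these correlations include that difference.

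Among the nearest relatives, 3 other group IX genes had lower values in every scion bud than in every rootstock bud, none of them called. ERF105 and ERF104, which are rapidly induced by cold and by bacterial flagellin, had bud differences of -1.91 ± 0.49 (adjusted p = 0.141) and -1.63 ± 0.57 (adjusted p = 0.284). ERF5, the closest relative of ERF6, had -0.98 ± 0.30 (adjusted p = 0.204). In leaves these 3 genes had 0.25 ± 0.49, -0.03 ± 0.57 and -0.60 ± 0.30. ERF107, at 0.29 ± 0.38 in buds, did not share this direction. RAV2, the relative of RAV1, had -1.07 ± 0.58 in leaves and 0.67 ± 0.58 in buds, and RRTF1, a group X relative of RAP2.6, had -1.07 ± 0.52 in leaves and -0.04 ± 0.52 in buds. In the DREB group of AT4G32800, AT2G44940 had -1.05 ± 0.38 in leaves (adjusted p = 0.560), with every scion array below every rootstock array, and AT4G16750 had -1.05 ± 0.42 (adjusted p = 0.630). TINY2 of the same group had 0.08 ± 0.21 in leaves, and AT3G16280 had -0.58 ± 0.20 in buds (adjusted p = 0.286). Of the relatives named here, ERF105, ERF104, RAV2 and RRTF1 also stand in the study's own list, and ERF5 had its name only from the study's tables.

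**Figure D4:**
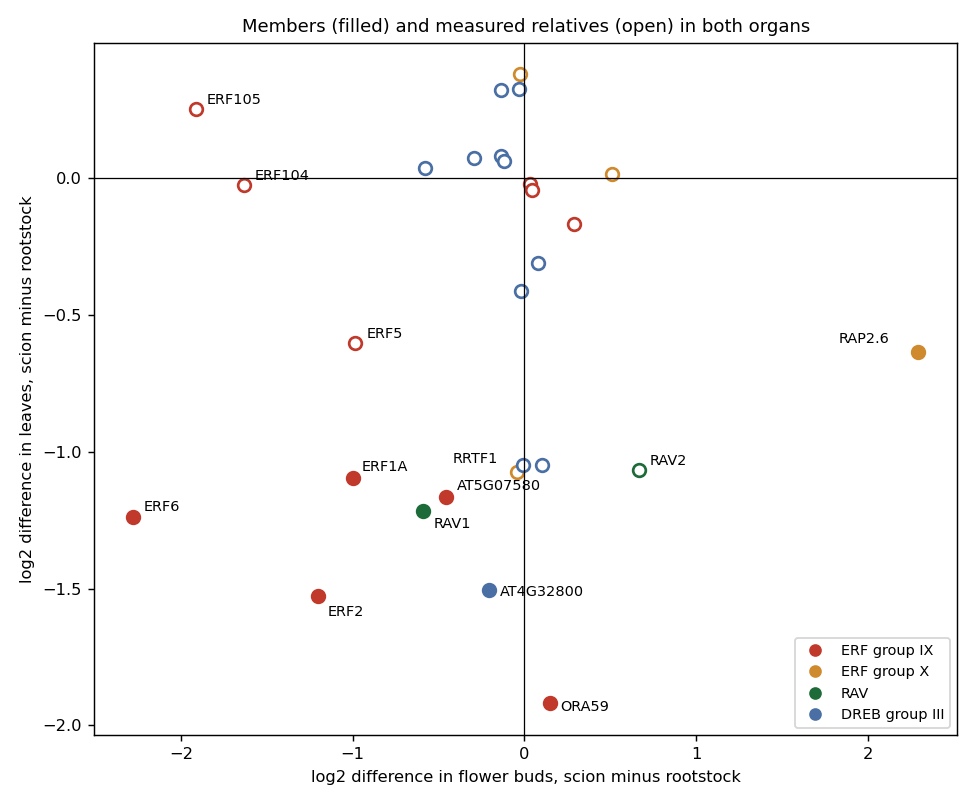
Log2 difference of scion minus rootstock in flower buds (horizontal axis) and in leaves (vertical axis) for the 8 members (filled) and the measured relatives of their groups (open). ERF105, ERF104 and ERF5 lie at -1.91, -1.63 and -0.98 in buds, beside ERF6 at -2.28, while RAP2.6 lies alone at 2.29.

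Of the 11 measured group IX genes, 7 were lower in flower buds of scion, where 56.0% of all probe sets were, and for all 7 the groups did not overlap, as for 14.1% of all probe sets. The median over the 11 was -0.98 in buds and -0.60 in leaves, where 10 were lower, but 5 of the 11 are members and 7 stand in the study's own list. Without the members, 3 of the 6 remaining genes were lower in buds, all 3 without overlap, with a median of -0.48. Of these 3, ERF104 and ERF105 also stand in the study's own list. All 3 had names only from the study's tables, so their count is no independent evidence. The other 3, named by the platform annotation, were higher by 0.03 to 0.29. In leaves 5 of the 6 were lower, with a median of -0.04. Among the 45 measured family genes that are not members, 28 were lower and 17 higher in scion buds. In scion leaves 21 were lower and 24 higher. The medians were -0.03 in buds and 0.02 in leaves, and none was called in either organ. The 41 of these genes outside the study's own list had medians of -0.02 in buds and 0.02 in leaves. The 13 group I and II DREB genes, 10 group III DREB genes without AT4G32800, 5 group VIII, 3 group V and 4 AP2 genes had median differences between -0.25 and 0.38 in both organs.

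Among ethylene genes, 2 of 4 synthesis genes and all 4 measured signalling genes, of 12 listed, were higher in flower buds of scion. Their medians were 0.16 and 0.36, and 56.0% of all probe sets were lower there. ACO3, an ACC oxidase that makes ethylene, was up-regulated in scion buds by 4.03 ± 0.47 (adjusted p = 0.00987), and it was the only one of these 8 genes that was called. ACS6, an ACC synthase, had -1.24 ± 0.40 (adjusted p = 0.243). The receptor genes ERS2 and ERS1 had 1.12 ± 0.44 and 0.66 ± 0.18. EIN3 had only 0.07 ± 0.25 and the remaining signalling gene 0.05 ± 0.23. In leaves none of these 8 genes was called. ACO3, ACS6 and ERS2 stand in the study's own list, and several of the 8, among them ACS6, ERS1 and ERS2, had names only from the study's tables. The counts are therefore no independent evidence.

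Of the 6 measured GCC-box defence genes none was called in either organ, and in scion leaves 4 were lower and 2 higher. In leaves the defensin genes PDF1.2A and PDF1.2B had -2.36 ± 0.86 (adjusted p = 0.563) and -1.74 ± 0.70 (adjusted p = 0.634), and CHI-B, a basic chitinase, had 1.21 ± 0.50 (adjusted p = 0.651). Of the 6 genes 4 stand in the study's own list, PDF1.2A, PDF1.2B and CHI-B among them, so these values are not independent evidence. All 5 measured jasmonate genes, of 23 listed, were lower in scion leaves, where 52.2% of all probe sets were lower. Their median was -0.83 and none was called, with AOS at -1.28 ± 0.79 and LOX4 at -0.10 ± 0.72. All 5 had names only from the study's own tables, drawn from these same arrays, so the count is not independent evidence. Of 11 measured early wound and touch genes 9 were lower in scion buds, where 56.0% of all probe sets were lower. The median of the 11 was -0.37 and none was called, with CAF1A at -1.28 ± 0.57. Of the 11, 4 stand in the study's own list. All 5 measured abscisic acid response genes, of 10 listed, were higher in scion buds, where 56.0% of all probe sets were lower. Of the 5, 2 were called, where 0.237% of all probe sets were called higher. They were RAB18 at 4.32 ± 0.61 (adjusted p = 0.0227) and ABI2 at 2.3 ± 0.26 (adjusted p = 0.00987). Of these 5 genes 4 stand in the study's own list and had names only from its tables, so the counts are not independent evidence. In leaves none of the 5 was called. The 2 measured reference genes, SAND and EXP, had differences between -0.30 and 0.09 in both organs.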

How the data were processed

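Total RNA of 12 samples, 3 in each of 4 groups, was hybridised to Affymetrix ATH1 arrays, 1 sample per array. The authors normalized the arrays by RMA in GeneSpring GX and deposited log2 values, in which every probe set had a median of 0 over the 12 arrays. That centring removes levels, so no filter on dim probe sets was possible, and the number of arrays limits the precision. No depth applies to arrays. Columns of the authors' own comparisons were not used.

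The 64 control probe sets were left out and 22746 were tested. Names came from the platform annotation and the study's tables (13982 probe sets with 1 gene). The other probe sets had several genes or no name here. The study's tables alone named 469 of the 13982, and a listed gene counts as measured only where a probe set bore its name. RefSeq (TAIR10.1 gene table) gave only names and neighbouring genes. The fit was limma 3.58.1 in R 4.3.3, with a mean for each group, 1 shared spread over all 12 arrays, and Benjamini-Hochberg adjustment over all tested probe sets. It stands in for the one-way analysis of variance of the methods, which was run as an alternative. Other tables were made in Python 3.11.15 with pandas 2.3.3. The fit was tested on simulated data.

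The members and lists were chosen with earlier results of these data known. All 8 members are named. Of each list, genes called between scion and rootstock could be named, with up to 3 further genes of smallest p in an organ, though not every list is named to that limit. Beside them stand fixed relatives of the members (such as ERF107, TINY and TINY2), chromosome neighbours and the 3 probe sets most like each member.

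Replicate numbers come from the sample titles. Same-numbered leaf arrays correlated in their deviations from group means (0.342, 0.714 and 0.816). Scion leaf 2 with rootstock leaf 1 gave 0.396, above the 0.342 of number 1. The same-numbered leaf arrays were taken as paired for the differences within pairs, but the main fit did not use this pairing. Same-numbered flower bud arrays gave 0.0234, 0.0741 and 0.201 and were not taken as paired. The alternative with a replicate block within organ used the numbers in both organs. The methods describe independent biological replicates, and the labels do not tie arrays to plants, so p-values measure only the spread between these samples. Sequences were not analysed here, and 1 gene of the ethylene synthesis list is not reported here.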

Additional observations from a re-analysis of the deposited data

How the results depend on the processing

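Of 792 alternative values for 40 member differences, 734 kept their direction and their side of the threshold, 33 passed it newly, 10 lost it and 15 changed sign. Members called in flower buds numbered 1 in the main analysis, 2 with array weights, 2 by the one-way analysis of variance, and 0 to 1 with 1 array left out. Members called in leaves numbered 0, against 3 with array weights, 7 by the analysis of variance, whose p covers all 4 groups and so also the organs, 2 with the replicate block within organ (ORA59 and RAV1), 1 without replicate 3 of both leaf groups, an alternative chosen after seeing the data, and 0 to 1 with 1 array left out. The difference between organs in the scion effect was called for 0 members, 2 with array weights (AT4G32800 and ORA59) and 1 without replicate 3 of both leaf groups. Between organs of the scion 4 members were called, 7 after quantile normalization and 3 to 5 with 1 array left out. Between organs of the rootstock it was 7 with any 1 array left out, and 6 by the analysis of variance. The replicate block within organ changed no other call of a member between scion and rootstock. With it, the leaf differences of ERF6 and AT5G07580 had adjusted p values of 0.0538 and 0.0509, which just missed the threshold.

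The change in buds minus that in leaves turned sign for ERF1A (0.10) with quantile normalization (-0.31), without replicate 3 of both leaf groups (-0.078) and with 1 array left out (-0.61 to 0.63). For ERF2 (0.33) it turned with array weights (-0.029), without replicate 3 of both leaf groups (-0.37) and with 1 array left out (-0.83 to 1.08), and for RAV1 (0.63) with quantile normalization (-0.10). With 1 array left out, ERF6 between organs of the rootstock ranged from -0.38 to 0.13, ORA59 in flower buds from -0.22 to 0.40, and RAP2.6 in leaves from -1.34 to 0.14. None of these was called in the main analysis, and the causes were not tested.

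Over all probe sets, 90 were called in flower buds, against 143 with quantile normalization, 170 without replicate 3 of both leaf groups, 466 with the block within organ, 566 by the analysis of variance, 639 with array weights, 18 without scion flower bud 1 and 0 to 286 with 1 array left out. In leaves 12 were called, against 0 with leaf arrays alone, 4, 51, 108, 297 and 226 under the alternatives of quantile normalization, no replicate 3, block, analysis of variance and weights, and 7 to 55 with 1 array left out. For the difference between organs 0 were called, against 18, 10, 111 and 467 with quantile normalization, no replicate 3, block and weights.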
